A study of Mus musculus with 36 samples.

Results

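Mitosis and chromosome segregation were followed through 44 genes of the G2/M programme, the kinetochore, the spindle and cytokinesis in C2C12 cells, an established mouse myoblast line, cultured in space or on land. The genes were given as a list of symbols, which matched 44 of the 49315 genes counted, and the list was drawn up by gene function with earlier results of these data known. Of the 44, 39 were abundant enough to be among the 11558 genes tested. Plk1, Bub1b, Kif2c, Espl1 and Nek2 fell below the filter on low counts.

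Polyadenylated RNA of proliferating C2C12 myoblasts was sequenced in 6 groups of 3 libraries. The groups were cells in space without gravity, cells in space with gravity, and cells on land, each without nanoceria and with it. Nanoceria are cerium oxide nanoparticles, here coated with fetal bovine serum and given at 100 µg/ml from a medium reservoir. All groups were grown on coverslips in sealed flight hardware and preserved with RNAlater inside it, and the labels name 3 such experiment units for each group. "Without gravity" and "with gravity" are the labels' words for culture on board the space station. The land groups were a separate, later run in the same kind of hardware, so regime and run cannot be told apart in any comparison with land. Each p-value measures the spread between units of 1 run. All cells are of 1 immortal line, and no primary muscle was examined.

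Mitosis begins when cyclin B and CDK1, switched on by CDC25 phosphatases, phosphorylate chromosomes and spindle. Kinetochores assembled on centromeric chromatin then capture microtubules, and the checkpoint proteins MAD2 and BUB1 hold back the anaphase-promoting complex until all chromosomes are attached. Aurora B with INCENP, survivin and borealin, the chromosomal passenger complex, corrects faulty attachments and moves to the midzone, where anillin and ECT2 help to build the contractile ring. In myoblasts these genes are transcribed in cycling cells and silenced when cells leave the cycle to form myotubes. In bulk RNA, fewer dividing cells and less of a transcript per cell cannot be told apart.

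The libraries differed in depth and in the share of counts taken by a few transcripts. Total counts were 2986628 to 11378178 in 17 libraries, which held between 37 and 44 of the 44 genes with a count and 240 to 5256 counts over them. In these, 3 counts, taken as the least that a library can show, corresponded to 0.193 to 1.11 CPM (counts relative to library size). The smallest library, replicate 3 of space with gravity and nanoceria, had 23858 counts, 9 of them in 4 mitotic genes, and a limit of 35.7 CPM, so that a 0 there carries no information. Levels in space with gravity are therefore given for its other 5 libraries unless stated, while the fitted values use all 18 libraries unless stated. The 6 dominant transcripts, Lars2 and 5 predicted genes, took 40.7 to 70.3% of the counts in space without gravity, 24.5 to 54.4% in those 5 libraries and 49.6 to 76.3% on land. The myoblast markers Myf5, Des and Chrna1 had 8175, 10699 and 2435 counts in all, whereas Myod1 had 99 and Mstn 1. The 8 myoblast markers summed to 91.4 to 563 CPM in the 17 libraries, and 10 markers of differentiated muscle to 0.988 to 106 CPM. Of 12 markers of other cell types 10 had a count, Adipoq was at 0, and their sum of 1.64 to 45.5 CPM came mostly from Cd68 (1770 counts).

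The summed level of the 44 genes overlapped between the groups and had its highest mean in space without gravity with nanoceria. In space without gravity the summed level was 243 ± 90.7 CPM (SD, n = 3) without nanoceria and 377 ± 139 CPM with it. In space with gravity it was 196 ± 127 CPM without nanoceria and 224 ± 103 CPM (SD, n = 2) in the 2 readable libraries with it. With the smallest library, whose summed level rests on 9 counts, the latter was 185 ± 99.4 CPM (n = 3), so the order of these 2 groups turns with that library. On land it was 208 ± 81.1 CPM and 206 ± 104 CPM. The highest library of the series, 534 CPM, was replicate 1 of space without gravity with nanoceria, and the lowest, 88.9 CPM, was replicate 1 of land with nanoceria. The 3 regimes overlapped, with medians over both nanoceria levels of 298 CPM without gravity, 157 CPM with gravity (5 libraries) and 207 CPM on land.

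**Figure D1:**
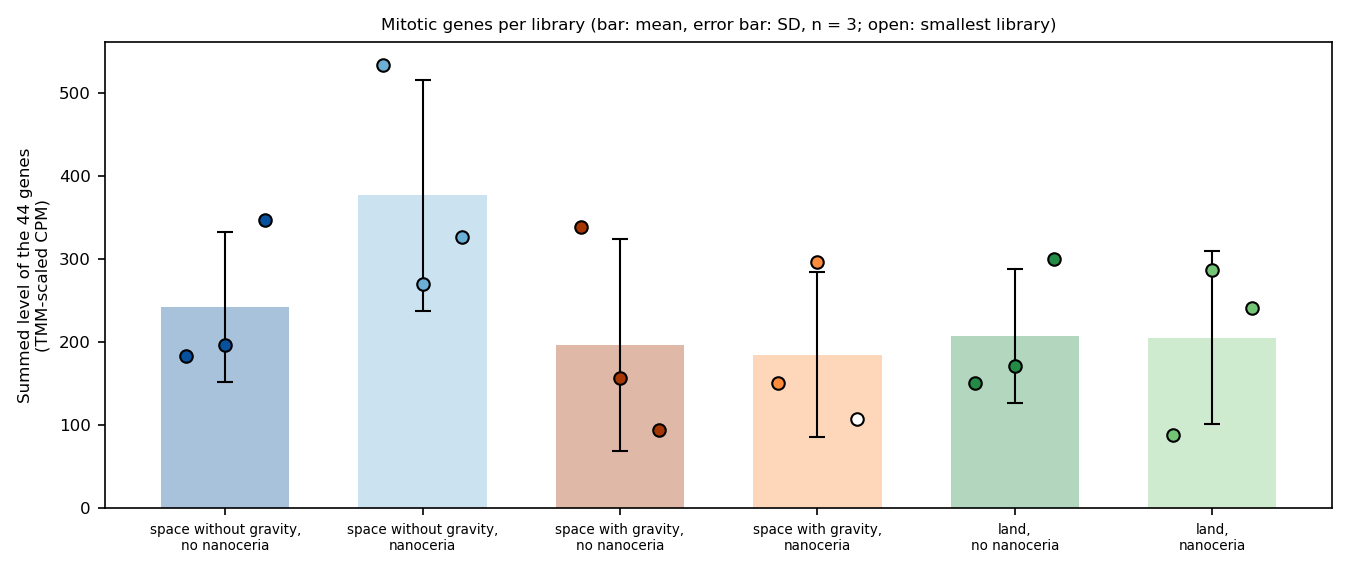
Summed level of the 44 mitotic genes (vertical axis, CPM after TMM scaling, from 0) in each library (points) of the 6 groups (horizontal axis), with bars at the group mean and error bars of 1 SD (n = 3). Libraries of space without gravity with nanoceria lie between 270 and 534 CPM, and every other group holds at least 1 library below 200 CPM; the open point is the library of 23858 counts, which enters the mean of its group.

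Per kilobase of exon, the mitotic genes were expressed below the typical tested gene. Their median level was 0.975 CPM per kilobase, against 2.35 CPM per kilobase over all genes tested. Cdc25c, a phosphatase that activates CDK1, was highest on that scale with 4.54 ± 5.56 CPM per kilobase (SD over 17 libraries). It was followed by Top2a, the topoisomerase that untangles sister chromatids, with 3.48 ± 2.79, and by Tpx2, which activates Aurora A on spindle microtubules, with 3.08 ± 2.94 CPM per kilobase. These SDs were about as large as the levels, so the order among the 3 does not hold beyond the spread. The fourth, Kif23, a motor of the central spindle, owed 48.6% of its summed level to replicate 2 of land with nanoceria, at 174 CPM, and had a median of 2.65 CPM in the rest. Among the rest it still reached 45.6 and 48.5 CPM in space without gravity and 28.0 and 36.4 CPM with gravity. At the other end stood Kif2c, a microtubule depolymerase, with 0.0775 CPM per kilobase, and Espl1, the separase that cuts cohesin, with 0.0861.

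The genes below the filter gave too few counts for a test. Plk1, a kinase of mitotic entry, had 87 counts in 14 libraries, 37 of them in replicate 3 of land with nanoceria. Bub1b, a checkpoint component, had 105 counts in 16 libraries. Espl1 had 74 counts, 33 of them in replicate 1 of space with gravity without nanoceria, and Kif2c and Nek2 had 36 and 106. None of the 5 can be placed in an order of regimes from these counts.

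Replicate libraries differed widely. The median biological coefficient of variation in edgeR was 0.688 for the 39 tested mitotic genes and 0.591 for all tested genes. The median share of a gene's summed level held by its highest library was 21.5% against 16.1% for all tested genes. As a description over 17 libraries that share depth and composition, the median correlation between 2 of the 39 genes, after subtraction of group means of log2(CPM + 0.5), was 0.280, against 0.0023 for all tested genes. In the heat map of the 39 genes, replicate 3 of space with gravity without nanoceria and replicates 1 and 2 of land with nanoceria were low in most rows. Replicate 1 of space without gravity with nanoceria was high in most rows.

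**Figure D2:**
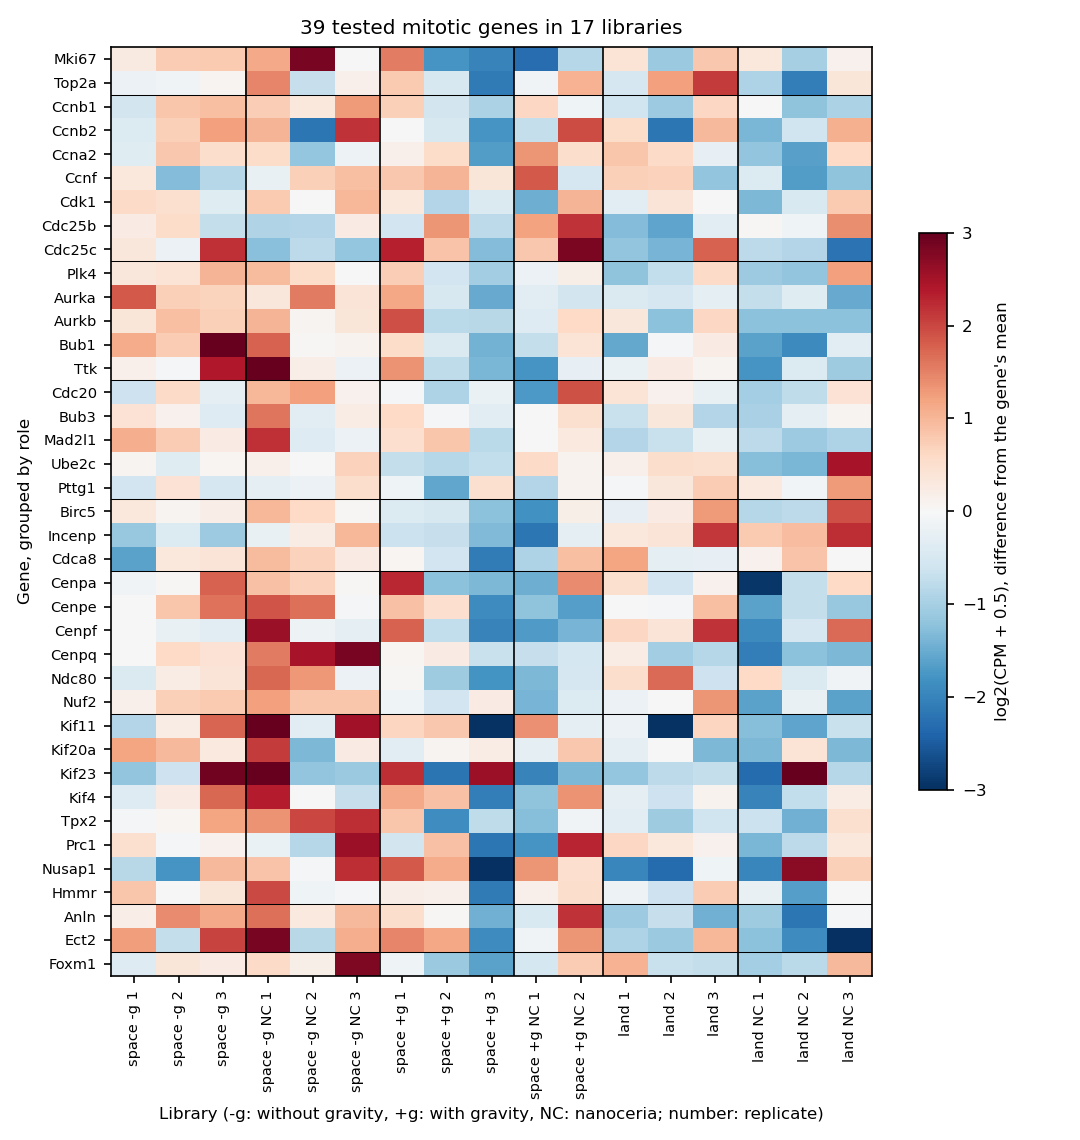
Level of the 39 tested mitotic genes (rows, grouped by role) in 17 libraries (columns, grouped by regime and nanoceria), as the difference of log2(CPM + 0.5) from the gene's mean; red is higher, blue lower, and the scale ends at ±3. Libraries of 1 group differ from each other over many rows at once, and the summed level ran from 88.9 to 534 CPM over these libraries.

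Promoter sequence was also examined, and its part in the variation between libraries was not tested. The cell cycle genes homology region, TTTGAA, and the CCAAT box are elements known from promoters of G2/M genes, and TTCCCGC and TTGGCGC are forms of the site of E2F factors. RefSeq promoters of the GRCm38.p6 build were given for 37 of the 44 genes, and the 250 bases before each start were searched on both strands. TTTGAA occurred in 13 of 37 (35.1%, against 18.3% of 27025 genes), CCAAT in 28 of 37 (75.7%, against 37.5%), and either E2F form in 5 of 37 (13.5%, against 6.45%). A match is a string of letters and no measured binding. The sequences printed are those of Mki67 and Cdk1, which carry all 3 elements, and of Bub1, Anln and Mad2l1, which were called higher in space without gravity than on land, with matches in capitals (ATTGG is CCAAT on the other strand). Bases that the annotation places in an exon are left out.
Mki67, GRCm38.p6 chr7:135716380-135716629, minus strand: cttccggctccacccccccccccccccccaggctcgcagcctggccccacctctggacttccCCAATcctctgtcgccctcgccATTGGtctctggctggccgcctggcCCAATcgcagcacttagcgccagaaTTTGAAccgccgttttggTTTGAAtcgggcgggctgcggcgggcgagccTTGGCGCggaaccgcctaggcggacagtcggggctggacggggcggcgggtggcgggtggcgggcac
Cdk1, GRCm38.p6 chr10:69352939-69353162, minus strand: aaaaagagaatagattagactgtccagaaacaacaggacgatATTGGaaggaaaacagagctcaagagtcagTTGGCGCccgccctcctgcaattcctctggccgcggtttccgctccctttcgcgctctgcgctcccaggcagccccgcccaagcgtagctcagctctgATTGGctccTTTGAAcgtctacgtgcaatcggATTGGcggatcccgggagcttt
Bub1, GRCm38.p6 chr2:127831866-127832109, minus strand: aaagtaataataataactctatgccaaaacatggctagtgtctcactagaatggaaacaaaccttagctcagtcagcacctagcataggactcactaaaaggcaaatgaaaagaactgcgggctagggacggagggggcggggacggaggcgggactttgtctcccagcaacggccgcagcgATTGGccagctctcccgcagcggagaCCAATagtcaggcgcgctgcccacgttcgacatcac
Anln, GRCm38.p6 chr9:22389207-22389456, minus strand: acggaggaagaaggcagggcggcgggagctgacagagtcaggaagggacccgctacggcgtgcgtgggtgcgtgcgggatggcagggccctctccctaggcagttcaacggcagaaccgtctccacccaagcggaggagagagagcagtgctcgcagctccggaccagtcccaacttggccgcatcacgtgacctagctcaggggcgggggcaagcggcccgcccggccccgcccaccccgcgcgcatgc
Mad2l1, GRCm38.p6 chr6:66534971-66535220, plus strand: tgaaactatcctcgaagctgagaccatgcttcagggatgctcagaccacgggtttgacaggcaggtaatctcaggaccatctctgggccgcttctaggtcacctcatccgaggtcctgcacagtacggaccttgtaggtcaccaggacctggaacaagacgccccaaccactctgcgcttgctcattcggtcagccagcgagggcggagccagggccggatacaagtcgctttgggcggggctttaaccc
Mki67 held TTTGAA 98 and 116 bases before its start, between CCAAT boxes at 141, 166 and 188 bases and TTGGCGC at 67 bases. Cdk1 held TTTGAA at 71 bases between CCAAT boxes at 48 and 80 bases, with a further CCAAT box at 208 and TTGGCGC at 178 bases. The second of its 2 TTTGAA matches in the 250 bases searched falls in the stretch left out. Bub1 held CCAAT at 42 and 68 bases and neither of the other elements, while the windows of Anln and Mad2l1 held none of them. Cenpq, also called higher in space without gravity than on land, held 3 CCAAT matches and neither of the other elements. Its sequence is not printed, nor is that of Ect2, which also had matches to all 3 elements. Called genes were thus found with and without these letters.

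No mitotic gene passed the adjusted test for gravity withdrawn within space, and most fitted values lay above 0. With edgeR at an adjusted p under 0.05, 0 of the 39 were called (0% of all tested genes). At an unadjusted p under 0.05, 9 were higher without gravity (2.09% of tested genes) and 2 lower (3.76%). DESeq2 and limma voom also called 0 at the adjusted threshold. The fitted log2 fold change, averaged over nanoceria, was above 0 for 33 of 39 and had a median of 0.76, against 0.04 for all genes. No gene had all libraries without gravity above or below all those with gravity, with or without the smallest library (0.658% of tested genes without it). That count depended on 1 library: without replicate 1 of space with gravity without nanoceria, 6 genes had no overlap. The share of all tested genes without that library is not given here, so the 6 are no result about the mitotic genes. They were also counted with the smallest library kept, where a 0 carries no information. The median of 0.76 ran from 0.46 without replicate 1 of space without gravity with nanoceria to 1.41 without replicate 2 of space with gravity and nanoceria. The share of dominant transcripts was also higher without gravity, with a median of 49.8% against 33.9%, and its part in these values was not tested. The fit with that share as a covariate called 0, but so did the fit without it, so this count cannot show that part.

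Kinetochore genes of the list had the highest median among the groups by role, a log2 fold change of 1.90. All 6 tested were above 0 (52.9% of tested genes), and 4 were higher at an unadjusted p under 0.05 (2.09%). The 29 tested kinetochore genes outside the list had a median of 0.56, with 22 above 0. At the same unadjusted level, 0 of those 29 were higher and 1 was lower (3.76% of tested genes). Cenpq (ENSMUSG00000023919, GRCm38 chromosome 17, 40923051 to 40935047), a subunit of the inner kinetochore, was measured at 1.60, 2.68 and 2.32 CPM without gravity and without nanoceria and at 5.68, 11.1 and 14.7 CPM with nanoceria. With gravity it was at 1.68, 1.98 and 0.823 CPM without nanoceria and at 0.792 and 0.956 CPM in the 2 readable libraries with it. Only the libraries with nanoceria stood clear of each other, and the log2 fold change was 2.07 ± 0.51 (SE), with an adjusted p in edgeR of 0.463. Cenpe, the kinesin that carries chromosomes to the metaphase plate, ranged from 5.42 over a median of 14.2 to 22.0 CPM without gravity and from 1.15 over 2.14 to 10.6 CPM with it. These ranges overlapped, and its log2 fold change was 1.94 ± 0.54 (SE, edgeR adjusted p 0.509). Ndc80, which binds microtubules at the outer kinetochore, spanned 1.20 to 7.13 CPM (median 2.34) without and 0.165 to 1.87 CPM (median 0.602) with gravity. Its log2 fold change was 1.87 ± 0.65 (SE) and that of its partner Nuf2 1.93 ± 0.72, neither of which passed. Cenpa, the histone variant that marks centromeres, had a log2 fold change of 0.0017 ± 0.86.

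Other roles gave mixed values in space. Tpx2 was at 9.83, 10.6 and 23.5 CPM without gravity and without nanoceria and at 26.8, 42.3 and 49.3 CPM with nanoceria, against 18.3, 2.41 and 5.76 CPM and 3.88 and 9.40 CPM with gravity. Its libraries overlapped only through the 18.3 CPM of 1 library with gravity, and the log2 fold change was 1.71 ± 0.53 (SE, edgeR adjusted p 0.587). Mki67, which encodes the Ki-67 coat of mitotic chromosomes and is read as a sign of proliferation, ranged from 8.97 over 15.5 to 66.4 CPM without gravity and from 1.43 over 2.23 to 26.4 CPM with it. The highest library with gravity stood alone, since the other 4 were at or below 4.62 CPM. Its log2 fold change was 1.96 ± 0.70 (SE) and that of Bub1 1.80 ± 0.67, and neither passed. The CDK1 phosphatases went the other way in fitted value, with −1.67 ± 0.75 for Cdc25c and −1.31 ± 0.62 for Cdc25b (edgeR adjusted p 0.818 and 0.841). Among the cyclins and CDK1 as a group, 3 of 7 were above 0, with a median of −0.24, and Cdk1 itself had 0.60 ± 0.57.

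Against land, cells in space without gravity had higher levels of Cenpq, Anln, Bub1 and Mad2l1. These 4 of 39 genes passed in edgeR as higher (2.81% of tested genes) and 0 as lower (2.44%). At an unadjusted p under 0.05, 14 were higher (12.3% of tested genes) and 1, Incenp, was lower (12.5%). The median log2 fold change was 0.89, against −0.02 for all genes, and 32 of 39 were above 0. This comparison shares its space libraries with the preceding one and its land libraries with the next, so the 3 are not independent. The 4 calls are a larger share of the 39 genes than that of all tested genes, and no test of that difference was made.

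Cenpq on land was at 1.97, 0.511 and 0.657 CPM without nanoceria and at 0, 0.401 and 0.325 CPM with it. A single land library lay above the lowest library of space without gravity, 1.60 CPM. These land values rest on 14, 2 and 2 counts without nanoceria and 0, 2 and 1 with it. All but the first are under the 3 counts taken as the least that a library can show. The log2 fold change was 3.09 ± 0.54 (SE, edgeR adjusted p 0.00912), with adjusted p between 0.00102 and 0.0549 over 8 other settings, and it passed in all 12 fits that left out 1 library. It was lost with the dominant share as a covariate. Of its exon bases 3.65% are also exon of Mut, and whether the counting used strand is not given in the sources used here.

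Anln encodes anillin, the scaffold of the contractile ring. In space without gravity it was at 5.21, 12.8 and 10.3 CPM without nanoceria and 15.1, 5.57 and 9.14 CPM with it, against 1.83, 2.56 and 1.31 and 1.85, 0.601 and 4.23 CPM on land. Every library in space without gravity was above every land library. The log2 fold change was 2.25 ± 0.59 (SE, edgeR adjusted p 0.0384), with adjusted p between 0.00245 and 0.105 over 8 other settings. The call held in 1 of 12 fits without 1 library, where adjusted p reached 0.0940.

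The checkpoint kinase Bub1 ranged from 2.23 over 4.62 to 20.5 CPM in space without gravity and from 0.200 over 1.02 to 2.63 CPM on land. The highest value was that of replicate 3 without nanoceria, and 2 libraries in space fell inside the land range. The log2 fold change was 2.61 ± 0.70 (SE, edgeR adjusted p 0.0390), with adjusted p between 0.00225 and 0.267 over 8 other settings, of which 4 kept the call. It held in 3 of 12 fits without 1 library, with adjusted p up to 0.130.

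Mad2l1 encodes MAD2, the inhibitor of the anaphase-promoting complex at unattached kinetochores. It ranged from 2.60 over 5.33 to 17.9 CPM in space without gravity and from 1.40 over 1.77 to 2.96 CPM on land, and 1 library in space lay inside the land range. The log2 fold change was 1.89 ± 0.52 (SE, edgeR adjusted p 0.0420), with adjusted p between 0.0243 and 0.220 over 8 other settings, of which 4 kept the call. It was 1.17 (adjusted p 0.162) without replicate 1 of space without gravity with nanoceria, and the call was lost in 10 of 12 fits without 1 library.

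**Figure D3:**
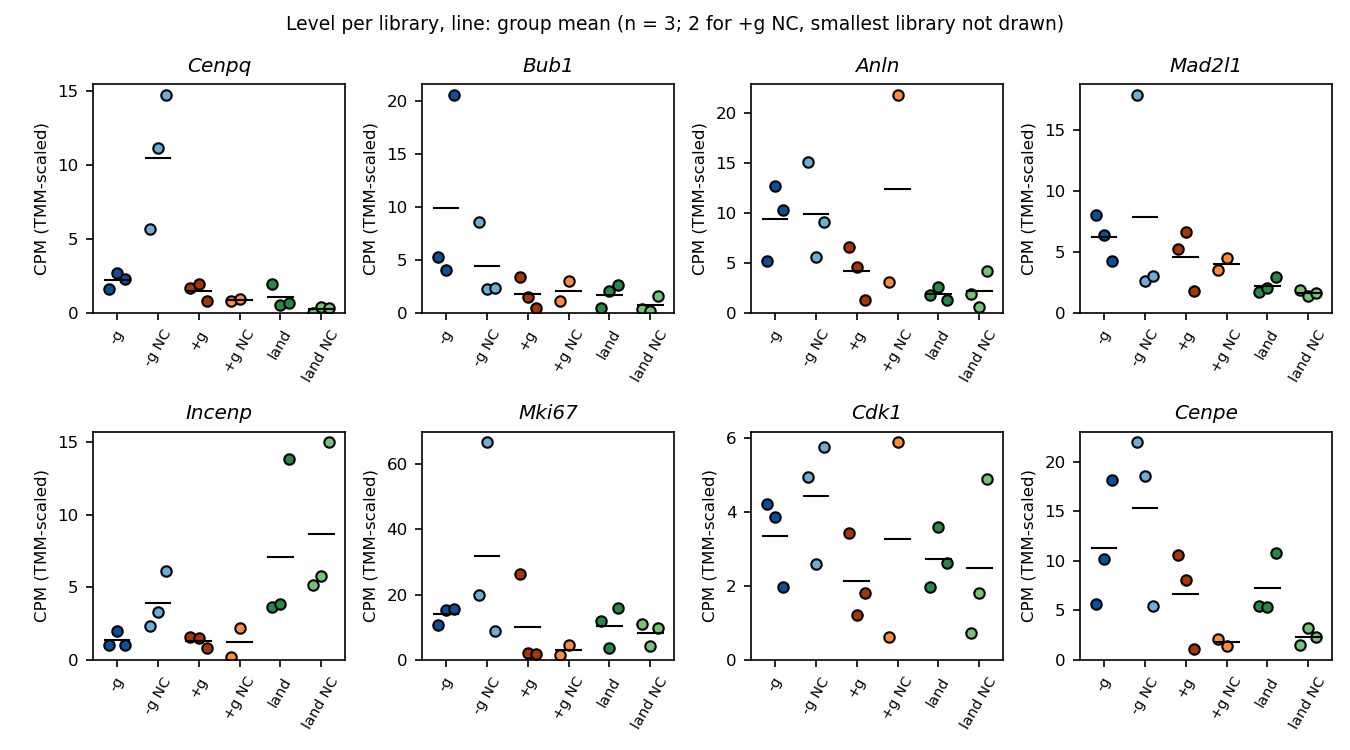
Level of 8 mitotic genes (vertical axes, CPM after TMM scaling, from 0, a scale for each gene) in each library (points) of the groups (horizontal axis; −g without gravity, +g with gravity, NC nanoceria), with lines at the group mean; the library of 23858 counts is not drawn. Cenpq is above 5 CPM only in space without gravity with nanoceria, and Incenp is above 3.6 CPM in all 6 land libraries.

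Some other genes leaned the same way without passing, among them genes that share a role with a called gene. Aurka, the centrosomal kinase, ranged from 1.31 over 1.81 to 4.61 CPM in space without gravity and from 0 over 0.537 to 0.657 CPM on land, and these ranges did not overlap. Aurka and Anln were the 2 genes of 39 with no overlap (2.91% of tested genes), and the log2 fold change of Aurka was 2.36 ± 0.80 (SE, edgeR adjusted p 0.0830). Land values of Aurka rest on 12 counts in 6 libraries. Tpx2 and Ect2, which activates RhoA for cytokinesis, had log2 fold changes of 1.75 ± 0.51 and 2.79 ± 0.83 (SE, edgeR adjusted p 0.0525 and 0.0561). Motors and spindle genes were above 0 in 8 of 8, kinases, with the called Bub1 among them, in 5 of 5, and the chromosomal passenger genes in 0 of 3. Top2a, at −0.10 ± 0.61, and Cdk1, at 0.58 ± 0.56, stayed within 1 or 2 SE of 0.

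Several genes of entry, spindle and exit had ranges that overlapped in all 3 regimes. Ccnb1, cyclin B1, ranged from 0.602 over 2.27 to 3.39 CPM in space without gravity, from 0.329 over 0.956 to 2.13 CPM with gravity and from 0.200 over 0.444 to 1.97 CPM on land. Cdk1, its kinase, had medians of 4.04, 1.81 and 2.30 CPM in the same order, and Cdc20, the activator of the anaphase-promoting complex, medians of 3.70, 2.31 and 2.68 CPM. The median without gravity was the highest for each of these 3 genes, and none of them passed a test. Kif11, the kinesin that pushes spindle poles apart, ranged from 1.60 over 8.34 to 33.6 CPM without gravity, from 0 over 5.61 to 9.58 CPM with gravity and from 0 over 1.53 to 5.59 CPM on land. Its log2 fold change between the first and the last was 2.52 ± 0.90 (SE, edgeR adjusted p 0.0981). Prc1, which bundles midzone microtubules, had medians of 1.82, 1.03 and 2.13 CPM, with the highest libraries, 12.9 and 10.5 CPM, both in space. Nusap1, a stabiliser of spindle microtubules, had medians of 8.24, 13.1 and 3.19 CPM and its highest library, 40.7 CPM, on land. Foxm1 had medians of 4.49, 2.30 and 2.01 CPM and reached 27.4 CPM in 1 library without gravity. For these 3 the order of regimes does not hold beyond the spread.

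Between space with gravity and land, Incenp was the gene that changed. It was called lower in edgeR, 1 of 39 (6.74% of tested genes), and 0 were called higher (7.22%). At an unadjusted p under 0.05, 7 were higher (15.8%) and 3 lower (16.1%), with 25 of 39 above 0. The median log2 fold change was 0.38, against −0.04 for all genes, and it was −0.0261 with DESeq2 size factors, which moved the median of all genes by −0.34. Relative to all genes the median of the 39 was 0.43 with the first scaling and 0.36 with the second. The 1 call among 39 genes was a smaller share than that of all tested genes.

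Incenp (ENSMUSG00000024660, GRCm38 chromosome 19, 9872297 to 9899533) encodes the scaffold that binds Aurora B to centromeres. With gravity and no nanoceria it was at 1.61, 1.55 and 0.823 CPM, and with both at 0.238 and 2.23 CPM. On land it was at 3.65, 3.84 and 13.8 CPM without nanoceria and at 5.18, 5.81 and 15.0 CPM with it. Every land library was above every library with gravity, which among the 39 held for Incenp alone (7.82% of tested genes, without the smallest library). The log2 fold change was −2.63 ± 0.60 (SE, edgeR adjusted p 0.0119), with adjusted p between 0.000163 and 0.211 over 8 other settings. The call was lost with the dominant share as a covariate and without replicate 1 of space with gravity and nanoceria (adjusted p 0.0514). In space without gravity Incenp was at 1.00, 2.01 and 1.07 CPM without nanoceria and at 2.33, 3.34 and 6.09 CPM with it, and against land its log2 fold change was −1.74 ± 0.54 (SE, edgeR adjusted p 0.0651).

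The other 2 passenger genes had smaller fitted differences between space with gravity and land. Birc5, which encodes survivin, had −1.42 ± 0.60 (SE), and DESeq2 called it lower where edgeR did not (edgeR adjusted p 0.112). Borealin (Cdca8) was also below 0. Aurkb, the kinase of the complex, had 0 counts in all 3 libraries of land with nanoceria, against 11 counts in those without it. Libraries of each group were pooled, and 3 counts were taken for the group at 0. The ratio of Aurkb to land, both with nanoceria, was then 2.46 in space with gravity and 4.87 in space without it. These ratios take the 13 and 21 counts in space as exact, so they are not lower limits, and Aurkb passed no adjusted test. With Aurkb set to 3 counts in that land group, the medians of the 39 genes in all comparisons averaged over groups were the same.

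Cytokinesis and CDC25 genes were on the higher side in space with gravity but did not pass. Anln ranged from 1.32 over 4.56 to 21.8 CPM with gravity, and its log2 fold change against land was 1.72 ± 0.60 (SE, edgeR adjusted p 0.0605). Cdc25c ranged from 1.65 over 9.11 to 37.0 CPM with gravity and from 0.651 over 2.11 to 17.7 CPM on land, with 2.08 ± 0.77 (SE, edgeR adjusted p 0.0733). Ndc80 was lower in fitted value, with −1.66 ± 0.66 (SE, edgeR adjusted p 0.0936), and was called by DESeq2. Mki67 had −0.79 ± 0.69, Top2a −0.31 ± 0.61 and Cdk1 −0.02 ± 0.58, none of them beyond 2 SE.

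**Figure D4:**
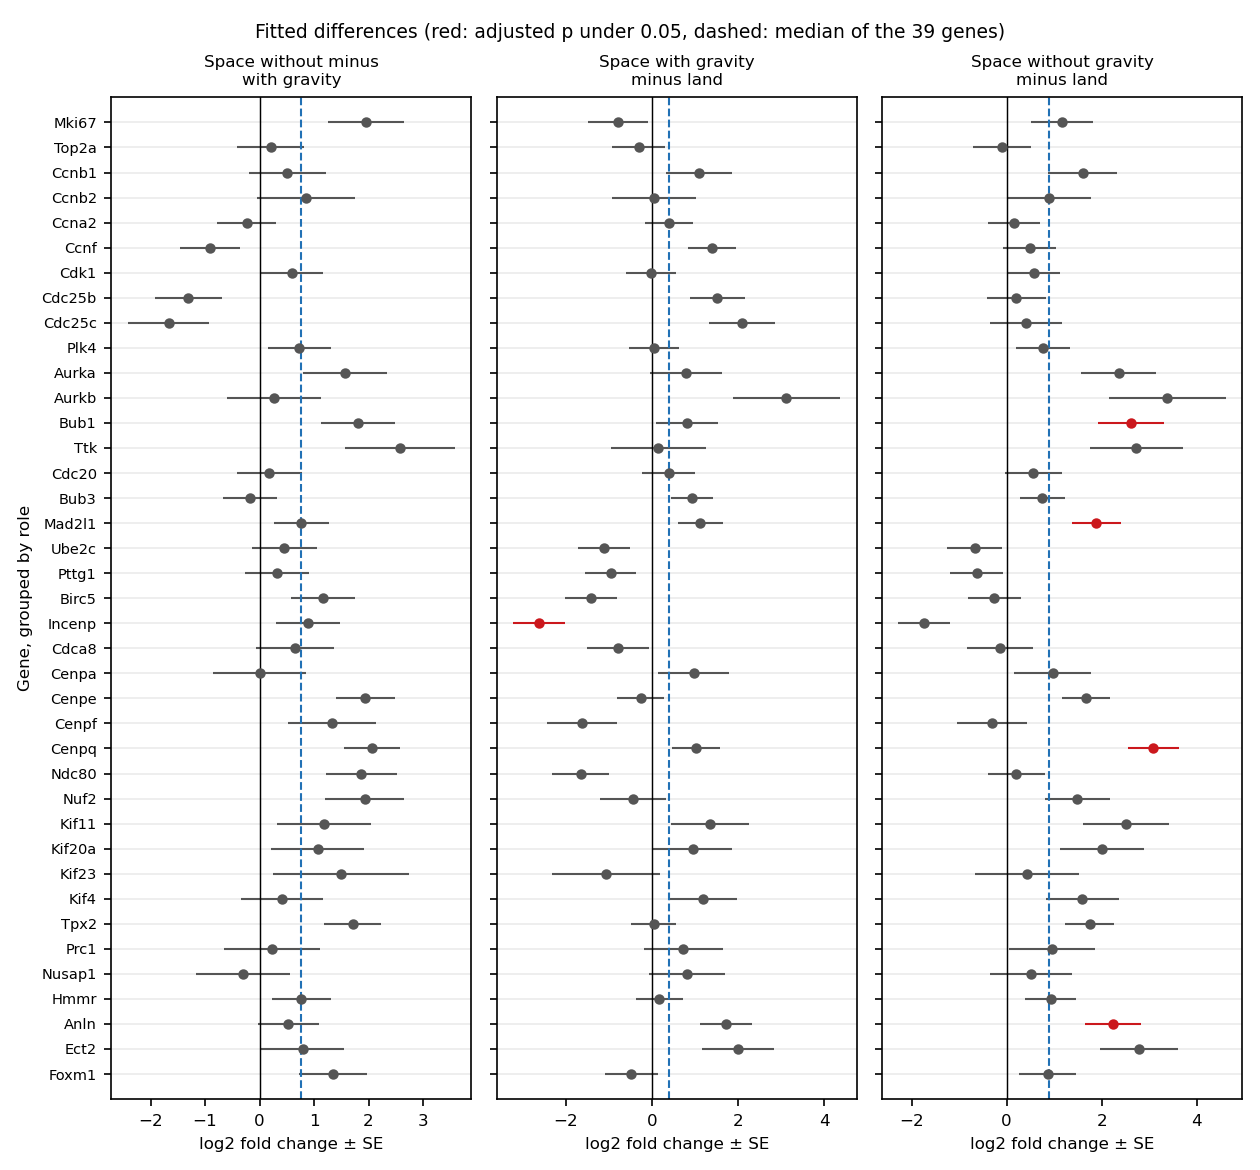
Fitted log2 fold changes with SE (horizontal axes) of the 39 tested mitotic genes (rows, grouped by role) for 3 comparisons averaged over nanoceria, with genes past an edgeR adjusted p of 0.05 in red and the median of the 39 dashed. The medians are 0.76, 0.38 and 0.89 from left to right, and 0, 1 and 4 genes are red; values of Aurkb against land rest in part on a group with 0 counts.

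For nanoceria averaged over regimes, no mitotic gene passed the adjusted test. Of 39, 0 passed in edgeR (0% of tested genes), and so did 0 with DESeq2 and limma voom. At an unadjusted p under 0.05, 2 passed, both lower (6.54% of tested genes in either direction). The median log2 fold change was 0.13, against −0.03 for all genes, and 22 of 39 were above 0. Those 2 were Cenpe, with −1.03 ± 0.43 (SE, edgeR adjusted p 0.752), and Aurkb, whose land libraries with nanoceria held 0 counts. Of the fixed markers, Mki67 had −0.33 ± 0.54, Cdk1 0.26 ± 0.46 and Foxm1, the transcription factor of the G2/M programme, 0.87 ± 0.50, and none passed.

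Within regimes the fitted values for nanoceria leaned in different directions. In space without gravity 31 of 39 genes were above 0 (49.5% of all tested genes), with a median of 0.48 against −0.0062 for all genes. With gravity 22 of 39 were above 0 (44.4% of all), with a median of 0.09 against −0.10. On land 11 of 39 were above 0 (48.4% of all), with a median of −0.53 against −0.03. In each of the 3 regimes 0 genes passed at the adjusted threshold in edgeR, as among all tested genes (0%). At an unadjusted p under 0.05 there were 2 without gravity (3.97% of tested genes), 1 with gravity (4.46%) and 8 on land (10.2%). The test of whether the nanoceria effect differed between regimes called 0 of 39 in edgeR (0% of tested genes), with 2 at an unadjusted p under 0.05 (6.14%). That of the gravity effect between nanoceria levels also called 0 (0%), with 4 at an unadjusted p under 0.05 (4.26%), so these leanings were not shown to differ. The smallest p of both tests was that of Cenpq, with edgeR adjusted p of 0.719 for the first. For the gravity effect its log2 difference between nanoceria levels was 3.06 ± 1.01 (SE, edgeR adjusted p 0.9999).

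Among the 9 pairwise comparisons, 1 of all tests on the 39 genes passed in edgeR. It was Cenpq in space without gravity against land, both with nanoceria, with a log2 fold change of 5.20 ± 0.84 (SE, adjusted p 0.0211), where 0.0346% of tested genes were called higher. The call was lost with limma voom, with the compared groups only, with the dominant share as a covariate, without any 1 of the 3 libraries of space without gravity with nanoceria, and without replicate 1 or 3 of land with nanoceria. A mean of at least 50 counts leaves Cenpq out. Pooled over the libraries of each group, 156 counts stood against 3, a ratio of 36.2 with an exact 95% interval of 12.2 to 177 that covers counting error only. Against the same regime without nanoceria the pooled ratio was 4.51 (3.14 to 6.65), and against space with gravity and nanoceria it was 12 (7.14 to 21.5). Those 2 differences did not pass in edgeR.

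Genes of the same processes outside the list were counted for comparison. For gravity withdrawn in space, 0 genes of the 9 lists passed in edgeR (0% of tested genes). At an unadjusted p under 0.05, 5 were higher (2.09% of tested genes) and 2 lower (3.76%). Nanoceria likewise gave 0 calls, with 5 higher and 7 lower at that level (6.54% of tested genes in either direction). Between space without gravity and land, 2.81% of all tested genes were called higher and 2.44% lower. Single calls in lists of this size are therefore not read as results about the lists. Of 29 other kinetochore genes 1 passed, Zwilch, which recruits dynein to kinetochores (3.91 ± 0.91). So did 1 of 29 other spindle and cytokinesis genes, the kinesin Kif20b (1.86 ± 0.53), 1 of 8 G1 cyclins and kinases, Ccne2 (2.81 ± 0.64), and 1 of 16 S-phase genes, Dbf4, the activator of the CDC7 kinase (3.07 ± 0.53), all 4 higher in space. Dbf4 was between 15.8 and 72.0 CPM in space without gravity and between 0.325 and 18.5 CPM on land. Of 19 condensin and cohesin genes and of 17 genes of the anaphase-promoting complex, 0 passed. At an unadjusted p under 0.05, 7 and 1 were higher (12.3% of tested genes).

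Between space with gravity and land the calls in these lists went both ways, as among all tested genes, of which 7.22% were called higher and 6.74% lower. The condensin subunit Ncapg2 (2.22 ± 0.69), Tfdp1, a partner of E2F factors (1.86 ± 0.55), and cyclin E2 (Ccne2, 2.98 ± 0.65) were higher, and the centromere protein Cenpb (−2.05 ± 0.50) and the CDK inhibitor Cdkn2d (−2.21 ± 0.68) were lower. Cdk2 was called lower as well. Of 29 other spindle and cytokinesis genes, 2 were called higher and 1 lower, and of 16 S-phase genes 2 were called higher and 1 lower. The S-phase gene with the smallest p was Rrm2, a subunit of ribonucleotide reductase, at −2.65 ± 0.57 (SE, edgeR adjusted p 0.00994). Cenpb was at 16.6 to 62.5 CPM in the 5 readable libraries with gravity and at 64.8 to 196 CPM on land. The anaphase-promoting complex (17 genes) and mitotic entry control (8 genes) had 0 calls. At an unadjusted p under 0.05, 3 and 1 were higher (15.8% of tested genes) and 1 and 0 lower (16.1%).

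Markers of other cells and of muscle had higher medians on land than in space without gravity. Over 6 libraries a regime, the 12 markers of other cell types summed to a median of 9.76 CPM in space without gravity, 19.5 CPM with gravity and 23.2 CPM on land. The 10 markers of differentiated muscle summed to medians of 6.30, 7.25 and 8.72 CPM, and the 8 myoblast markers to 143, 210 and 216 CPM. The medians with gravity include the smallest library, with its limit of 35.7 CPM, where a 0 carries no information. Of the 8, 10 and 12 genes, 6, 3 and 1 were tested and 0 passed in any averaged comparison in edgeR. In space with gravity, 2 myoblast markers were lower than on land at an unadjusted p under 0.05 (16.1% of tested genes). All 6 myoblast markers were below 0 in both comparisons with land. The part of these cells in the mitotic values was not tested.

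Shared exon bases limit some genes. Of the 44, 15 share exon bases with another gene and 5 share at least 10%: Kif20a (33.2%, with Cdc23), Ube2c (22.8%, with Tnnc2), Kif4 (15.1%), Ccna2 (12.5%) and Prc1 (11.1%). Without a statement on strand, reads of such pairs cannot be told apart. Ube2c, the enzyme that passes ubiquitin to the anaphase-promoting complex, was at 21.2 CPM in replicate 3 of land with nanoceria and at 1.00 to 5.76 CPM in the other 16 libraries with adequate depth.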

How the data were processed

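Polyadenylated RNA of C2C12 myoblasts was counted in 18 libraries, 3 in each of 6 groups, grouped by the labels' class letters. The authors deposited raw counts per Ensembl gene, 1 file per library. The submitters' processing notes name CASAVA, Trimmomatic 0.36.29, STAR, Subread, featureCounts and the build GRCm38.p6, without roles, and strand use is not given in the sources used here. Small RNA samples were not analysed here. The lists of genes and the members were chosen with earlier results of these data known, and the tests and alternatives likewise.

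The tests used edgeR 4.0.16 under R 4.3.3 on the raw counts: filterByExpr over the 6 groups, TMM scaling, a robust quasi-likelihood fit of group means over 18 libraries (12 residual degrees of freedom) and Benjamini-Hochberg adjustment over 11558 genes, with a threshold of 0.05. The fit was tested on simulated data. CPM were computed on TMM-scaled library sizes, and a log2 offset of 0.5 was used for the heat map and correlations. Symbols came from a table that matched 48970 of 49315 identifiers. Reads are not molecules, so limits of 3 counts and intervals cover counting error only. Alternatives were DESeq2 size factors, the DESeq2 1.42.0 test, limma 3.58.1 voom, no filter, a mean of at least 50 counts, only the compared groups, the smallest library or the 6 dominant genes left out, their share as a covariate, and each library left out. Named with values were genes past the threshold, the 4 with the smallest p in each averaged comparison and a fixed list of 17 markers, besides genes named after their values were seen: Nuf2, Cdc25b, Ect2, Birc5, Cdca8, Kif23 and Cdk2. Promoters came from RefSeq.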

Additional observations from a re-analysis of the deposited data

How the results depend on the processing

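No paired analysis was possible because replicates are numbered in record order only, which pairs no libraries. Calls for gravity withdrawn in space and for nanoceria were 0 under every alternative run. Without the smallest library the counts of calls were the same. The counts of calls and of genes without overlap below are of the mitotic genes only. Shares of all tested genes under each setting are not given here, so a changed count is no result about the mitotic genes alone. For space with gravity against land, 1 call became 2 with DESeq2 size factors, 3 with DESeq2, 4 without a filter (3 higher), and 0 with a mean of at least 50 counts, which keeps 9 of the genes and not Incenp, or with the dominant share as covariate. It was 0 to 2 without 1 library: 0 without replicate 1 of space with gravity and nanoceria, and 2 without replicate 2 of that group, replicate 3 of space with gravity without nanoceria, or replicate 3 of either land group. For space without gravity against land, 4 calls, all higher, became 2 with DESeq2 size factors (1 higher, Cenpq, and 1 lower, Incenp), 9 without a filter, 1 with a mean of at least 50 counts (Ect2), and 0 with the covariate. Without 1 library they were 1 to 5, and Cenpq alone in 9 of 12 fits: those without replicates 1 or 3 of space without gravity at either nanoceria level, replicates 1 or 2 of land without nanoceria, or any of land with nanoceria. Pairwise calls, 1, became 6 with DESeq2, 2 with voom, 20 without a filter, and 0 with a mean of at least 50 counts, the compared groups only or the covariate, and were 0 to 1 without 1 library.

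The median of the 39 genes for nanoceria (0.13) was −0.17 with voom and −0.21 to 0.36 without 1 library. For space with gravity against land (0.38) it was −0.0261 with DESeq2 size factors, −0.0897 with a mean of at least 50 counts, −0.23 with the covariate, and −0.14 to 0.73 without 1 library, below 0 without replicate 1 of space with gravity without nanoceria or replicate 2 with it. For gravity withdrawn in space (0.76) it was 0.46 (without replicate 1 of space without gravity and nanoceria) to 1.41 (without replicate 2 of space with gravity and nanoceria) without 1 library, and for space without gravity against land (0.89) 0.77 to 1.26. Genes without overlap were 0 to 6 for gravity withdrawn in space without 1 library, 6 without replicate 1 of space with gravity without nanoceria. For space with gravity against land they were 0 with a mean of at least 50 counts. For space without gravity against land they were 1 with DESeq2 size factors, 0 with a mean of at least 50 counts, and 2 to 7 without 1 library (4 and 7 without replicates 1 and 3 of land without nanoceria). Except where the changed filter set the number of genes, the cause was not tested. Of 695 values of named genes under other settings, 12 lost and 11 gained a call. Of 1188 without 1 library, 31 lost and 3 gained one. In both sets 0 called values changed sign, whereas uncalled values did so in 35 of the 695 and 71 of the 1188. Depth limits genes of low level: 3 counts equal up to 1.11 CPM, close to the level of Aurkb, Aurka and Cenpq on land.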
